A study of Mus musculus with 21 samples.

Results

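The higher-coordinate side of the Oct4 promoter, which the gene table lists with Tcf19, Cchcr1 and Psors1c2, was followed as a contact target of that promoter in embryonic stem (ES) cells. Its members were the positions 35649000 to 35797000 on chromosome 17 (mm9), taken by coordinate alone in steps of 1000 bp. They numbered 149 of 396 positions in each of 2 libraries, and the 21 libraries of the series held 14666 positions in all. Both libraries came from the IB10/E14 mouse ES cell line, grown with serum and LIF, and looked out from the promoter of Oct4 (Pou5f1). One was cut with NlaIII and then Csp6I, the other with DpnII and then Csp6I. Each enzyme pair had 1 library, so the values below are descriptions, with no test and no error from replicates. Enzyme pair and library cannot be told apart.

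Circular chromosome conformation capture with sequencing (4C-seq) reads how often other stretches of DNA are ligated to 1 chosen fragment, the viewpoint, after crosslinking in the nucleus. Crosslinking used 2% formaldehyde for 10 minutes. Contacts fall steeply with distance along the chromosome, so a site of interest is one that stands above that fall. Oct4 is a POU-domain transcription factor needed for pluripotency, and its gene lies within the class I part of the mouse major histocompatibility complex, with H2-Q genes to one side and the genes described here to the other.

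In the gene table (RefSeq, GRCm38.p6) Tcf19 follows Pou5f1 directly, then Cchcr1, Psors1c2 and Cdsn. Tcf19 encodes a PHD-finger nuclear protein linked to cell proliferation, and Cchcr1 a coiled-coil protein of centrosomes. Psors1c2 and Cdsn lie in the region that corresponds to the human psoriasis susceptibility locus, and Cdsn encodes corneodesmosin, an adhesion protein of the outer skin. Further along come the mucin-like gene Mucl3, Sfta2, Vars2 (mitochondrial valyl-tRNA synthetase), Gtf2h4 (a subunit of TFIIH) and Ddr1 (a collagen receptor). Of the 15 genes taken in this order, 11 are protein-coding. The table is of another build than the profiles, so only the order of the genes is used, and which gene lies under a given position was not determined.

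Where each enzyme can cut decides which fragments a library can report, so the promoters at the start of this side are shown with those sites. The sequences are from RefSeq (GRCm38.p6), 5′ to 3′ on the gene's strand, from 250 bases before to 50 after the annotated start, and their coordinates are not those of the mm9 profiles. Capitals mark NlaIII (CATG) and DpnII (GATC) sites; Csp6I (GTAC) was searched too. All 3 motifs read the same on both strands and do not overlap in these windows.
Pou5f1, first start, chr17:35505782-35506081, + strand: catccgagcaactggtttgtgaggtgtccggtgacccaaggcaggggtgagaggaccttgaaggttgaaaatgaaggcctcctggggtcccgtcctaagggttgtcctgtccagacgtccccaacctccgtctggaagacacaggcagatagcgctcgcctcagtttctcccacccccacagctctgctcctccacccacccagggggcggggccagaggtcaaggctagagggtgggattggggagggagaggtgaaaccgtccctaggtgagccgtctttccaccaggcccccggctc
Tcf19, chr17:35516775-35517074, - strand: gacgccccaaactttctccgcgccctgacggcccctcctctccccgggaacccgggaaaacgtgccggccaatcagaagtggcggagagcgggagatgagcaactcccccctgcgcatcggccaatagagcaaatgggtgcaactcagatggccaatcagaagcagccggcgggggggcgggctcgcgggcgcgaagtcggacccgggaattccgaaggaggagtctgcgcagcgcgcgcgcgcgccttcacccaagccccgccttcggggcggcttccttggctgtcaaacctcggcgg
Cchcr1, second start, chr17:35517003-35517302, + strand: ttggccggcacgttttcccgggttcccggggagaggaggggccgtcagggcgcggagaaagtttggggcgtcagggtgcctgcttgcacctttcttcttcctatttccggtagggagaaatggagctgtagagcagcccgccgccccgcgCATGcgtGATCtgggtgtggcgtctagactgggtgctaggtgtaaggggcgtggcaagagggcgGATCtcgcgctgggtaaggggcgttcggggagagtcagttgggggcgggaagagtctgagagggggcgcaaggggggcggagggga
Psors1c2, chr17:35532951-35533250, + strand: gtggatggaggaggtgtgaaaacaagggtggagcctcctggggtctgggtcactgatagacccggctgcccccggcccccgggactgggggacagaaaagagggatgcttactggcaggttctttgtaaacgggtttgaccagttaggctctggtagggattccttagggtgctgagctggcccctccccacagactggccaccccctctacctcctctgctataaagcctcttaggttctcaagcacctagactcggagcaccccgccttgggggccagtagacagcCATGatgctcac

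None of the 3 sites occurs in the printed windows of Pou5f1 and Tcf19. Cchcr1 has 1 NlaIII and 2 DpnII sites at its second start, and Psors1c2 has 1 NlaIII site. Of the starts not printed, the second of Pou5f1 has 2 NlaIII sites and 1 DpnII site, and the first of Cchcr1 has none. Of 32851 promoter windows of 300 bases in the table, 61.1% hold an NlaIII site, 47.97% a DpnII site, 35.8% a Csp6I site, and 14.5% none of them. The windows of Tcf19 and of the first start of Cchcr1 share 276 bases on opposite strands, so these genes start back to back, closer together than the 1000 bp step of the profiles.

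The deposited values are a signal smoothed over running windows, with a middle, a higher and a lower column for each window size. What quantiles the outer columns stand for is not stated there, and depth is unknown. The 5 kb window was the main scale and the 2 kb window the second. Neighbouring positions share most of their window, so a run of them is nearer to 1 measurement than to several. The highest signal was at 35645000 to 35646000 with NlaIII/Csp6I and at 35643000 with DpnII/Csp6I. For both libraries the viewpoint was placed between these peaks, at 35644250. Of the 149 members, 6 lay within 10 kb of it, and the rest beyond it. Each library had 376 positions beyond 10 kb on both sides together, 233 of them on the lower-coordinate side.

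Signal fell quickly over the first positions of this side in both libraries. At 35649000, which is 4.75 kb from the viewpoint, the middle value was 0.160 with NlaIII/Csp6I and 0.291 with DpnII/Csp6I. Over the next 5 positions, to 35654000, it ran from 0.112 down to 0.0776 with NlaIII/Csp6I. With DpnII/Csp6I it ran from 0.151 to 0.0930 and stood at 0.121 at 35654000. The highest signal, at the place given above for each library, was 0.944 and 1.12. By 9.75 kb both profiles were thus far below that level.

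**Figure D1:**
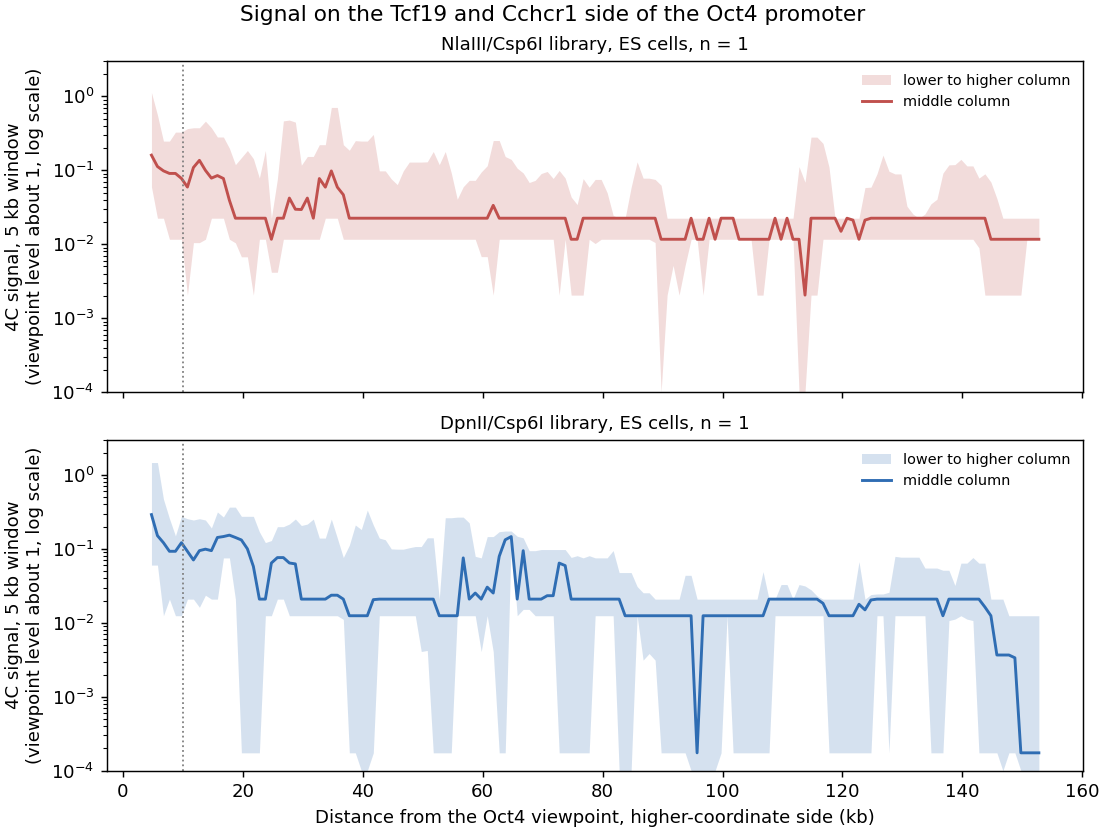
Middle value of the 5 kb window (line) and its lower and higher columns (shading) for the 149 positions against distance from the viewpoint in kb, on a log axis, 1 library per panel; values under 0.0001 are drawn at the lower edge and the dotted line marks 10 kb. Both profiles drop within about 10 kb and then run flat for long stretches, with a raised stretch near 61.75 kb in the DpnII/Csp6I library alone.

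Beyond 10 kb the Tcf19 and Cchcr1 side held less signal than the H2-Q side at matched distances. Up to 152.75 kb, the reach of this side, it took 36.7% of the signal of both sides with NlaIII/Csp6I and 40.8% with DpnII/Csp6I. The signal on it was also less gathered near the promoter. Of the side's signal beyond 10 kb, 26.7% with NlaIII/Csp6I and 40.1% with DpnII/Csp6I lay within 30 kb, against 68.4% and 68.5% on the lower-coordinate side. The summed signal reached its midpoint at 56.75 kb and 51.75 kb here, and at 23.25 kb and 24.25 kb on the lower-coordinate side. The middle 2 kb signal turned the DpnII/Csp6I share to 54.6%, and the lower column brought the NlaIII/Csp6I share to 47.3%. Between full and diluted template of the Hba-a1 viewpoint in fetal liver, the share of the higher-coordinate side went from 10.3% to 23.2%. That pair is another viewpoint and tissue and does not measure the spread of the Oct4 shares.

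By distance, most of the shortfall lay close to the promoter. Relative signal, which is signal over the library's mean beyond 10 kb, averaged 2.42 here against 8.23 on the lower-coordinate side at 10 to 20 kb with NlaIII/Csp6I. With DpnII/Csp6I the same means were 3.63 and 5.16. At 20 to 30 kb they were 0.822 against 6.11, and 1.75 against 8.21. At 30 to 40 kb the libraries differed in order, with 1.57 against 0.953 and 0.587 against 1.71. From 40 to 50 kb this side was the higher in both, with 0.746 against 0.486 and 0.621 against 0.454. At 60 to 70 kb the order again differed, with 0.783 against 1.49 and 1.84 against 0.758. At 70 to 80 kb this side was the lower in both, at 0.674 against 0.703 and 0.917 against 1.06. So it was at 80 to 90 kb, at 0.710 against 0.768 and 0.465 against 0.684. At 130 to 140 kb this side was the higher, at 0.746 against 0.301 and 0.622 against 0.224. In the last bin, 150 to 160 kb, this side has 3 positions, up to 152.75 kb. There the sides were level with NlaIII/Csp6I, at 0.387 each, and this side was far lower with DpnII/Csp6I, at 0.00540 against 0.587. Of 15 bins of 10 kb, this side was above the other in 8 with NlaIII/Csp6I and in 9 with DpnII/Csp6I. These counts include bins where the other side was 0, at 50 to 60 kb in both and at 90 to 100 kb with DpnII/Csp6I.

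**Figure D2:**
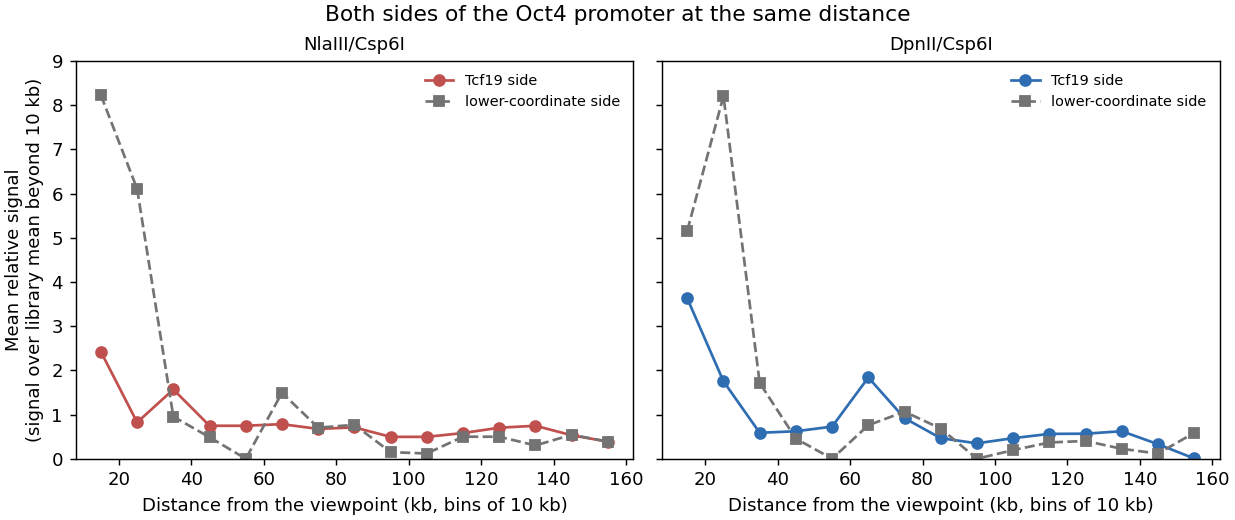
Mean relative signal (signal over the library mean beyond 10 kb) in bins of 10 kb against distance from the viewpoint, for the Tcf19 side (circles) and the lower-coordinate side (squares), 1 library per panel. The Tcf19 side is lower in both libraries at 10 to 30 kb, where the other side reaches 8.23 and 8.21, and the curves cross further out.

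Observed over expected (O/E) sets the mean signal within 5 kb of a position against a monotone decay fitted to both sides of the same library, with 10% of the library mean added to both. The nearest stretch stood below that expectation in both libraries. The same 19 positions, 35.655 to 35.673 Mb, had O/E under 0.667 in each. The median O/E over them was 0.368 with NlaIII/Csp6I and 0.574 with DpnII/Csp6I. The lowest values were 0.227 at 35.667 Mb and 0.505 at 35.671 Mb. Relative signal there averaged 1.66 and 2.80, against 7.64 and 6.94 on the lower-coordinate side at the same distances.

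That expectation draws on the stronger lower-coordinate side. With the decay fitted on the higher-coordinate side alone, O/E over these 19 positions ran from 0.678 to 1.00 with NlaIII/Csp6I and from 0.852 to 1.10 with DpnII/Csp6I. Over all positions beyond 10 kb, 13.6% had O/E under 0.667 with NlaIII/Csp6I and 21.8% with DpnII/Csp6I. Among the members these were 19 positions (13.3%) and 35 positions (24.5%), close to the background.

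Inside this stretch the libraries differed in shape. With NlaIII/Csp6I the highest signal beyond 10 kb was 0.136, at 35.657 Mb, after which the profile fell to 0.0225 at 35.663 Mb and held that value at 35.664 to 35.668 Mb. With DpnII/Csp6I the highest signal was 0.154, at 35.662 Mb, and it stood at 0.132 at 35.664 Mb before falling to 0.0210 at 35.667 Mb. The near shoulder thus reached several kb further with DpnII/Csp6I. The difference of log2 O/E (NlaIII/Csp6I minus DpnII/Csp6I) was lowest at 35.667 Mb, at -1.34, and was below -1 over 5 positions from 35.664 to 35.668 Mb. With the decay of this side alone it was -0.63 at 35.667 Mb.

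The position highest above expectation on this side was 35.706 Mb in the DpnII/Csp6I library, 61.75 kb from the viewpoint, with O/E 2.23 (log2 1.16). It was at percentile 100 of the 185 positions of that library at 0.5 to 2 times its distance, on both sides. As it was picked as the highest of this side, only lower-coordinate positions could have stood above it. The stretch with O/E above 1.5 covered 12 positions, 35.703 to 35.714 Mb. The lowest O/E inside it was 1.52, and the positions on its borders had 1.14 (35.702 Mb) and 1.35 (35.715 Mb). The highest value under the limit, 1.45, was at 35.775 Mb. In the NlaIII/Csp6I library O/E at 35.706 Mb was 1.08, and none of its members was above 1.5. Over all positions, 8.24% were above 1.5 with DpnII/Csp6I and 5.85% with NlaIII/Csp6I, and the members' share with DpnII/Csp6I was 8.39%. With DpnII/Csp6I the number of positions above the limit on this side is therefore near the background, and it is 1 continuous stretch. With NlaIII/Csp6I all 22 positions above the limit lay on the lower-coordinate side, 9.44% of its positions.

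Single positions show what that stretch is made of. In the DpnII/Csp6I library the middle signal was 0.0757 at 35.701 Mb, 0.0210 at 35.702 Mb, 0.0795 at 35.707 Mb, 0.133 at 35.708 Mb and 0.147 at 35.709 Mb. It fell to 0.0210 at 35.710 Mb, stood at 0.0948 at 35.711 Mb and was 0.0210 again at 35.712 Mb. At 35.706 Mb itself it was 0.0253, so the O/E there comes from its neighbours, and with the single position alone log2 O/E was -0.02. The NlaIII/Csp6I signal was 0.0225 at 35.700 to 35.705 Mb and at 35.707 to 35.712 Mb, and 0.0335 at 35.706 Mb. In the 5 kb window DpnII/Csp6I thus had a patch of high positions with low ones between them, where NlaIII/Csp6I was flat but for 35.706 Mb. In the 2 kb window NlaIII/Csp6I was not flat, with 0.0376 at 35.705 Mb, 0.0117 at 35.706 Mb and 0.0543 at 35.709 Mb. DpnII/Csp6I had 0.0253, 0.0253 and 0 there, so neither library was the higher throughout.

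At 35.709 Mb the outer columns lay close to the middle, at 0.133 and 0.175, which was under 2-fold apart. Of the members beyond 10 kb in that library, 8 had outer columns under 2-fold apart, and this was the one with the highest signal. The median ratio of the outer columns was 20.3 there and 9.83 with NlaIII/Csp6I. In the 2 kb window the signal reached 0.147 at 35.708 Mb, and the next 4 positions, 35.709 to 35.712 Mb, were empty (under 1e-09). O/E at 35.706 Mb stayed above 1.5 in 8 of the 48 window sizes and above 1 in 20. It was 1.90 at 2 kb, 1.46 at 10 kb, 1.12 at 20 kb and 0.871 at 30 kb. With the decay of this side alone it was 1.87.

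**Figure D3:**
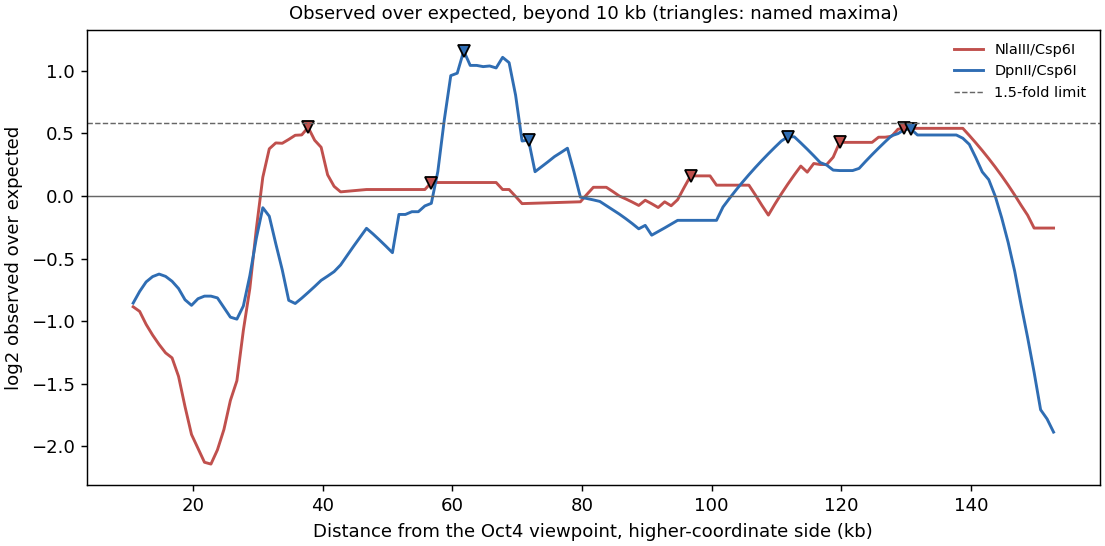
log2 O/E of the positions beyond 10 kb against distance from the viewpoint, with triangles at the named maxima and a dashed line at the 1.5-fold limit. Both libraries start below 0; DpnII/Csp6I alone passes the limit, near 61.75 kb, where its log2 O/E reaches 1.16.

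The highest position of the NlaIII/Csp6I library was 35.682 Mb, 37.75 kb away, with O/E 1.46 (log2 0.55), just under the 1.5-fold limit and at percentile 82.3 of the positions at like distance. It stayed above 1.5 in 2 of the 48 window sizes. Its signal lay on the near side of that point. The middle value was 0.0773 at 35.677 Mb, 0.0591 at 35.678 Mb, 0.0979 at 35.679 Mb, 0.0591 at 35.680 Mb and 0.0467 at 35.681 Mb. The DpnII/Csp6I signal over the same 5 positions ran from 0.0210 to 0.0237. NlaIII/Csp6I was thus the higher at each in the 5 kb window. In the 2 kb window DpnII/Csp6I was the higher at 35.678 Mb, with 0.119 against 0.103. At 35.682 Mb itself the NlaIII/Csp6I signal was 0.0225, its commonest value, and log2 O/E of the single position was 0.

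O/E at 35.682 Mb was 0.586 with DpnII/Csp6I, a log2 difference of 1.32. The difference was above 1 over 7 positions, 35.678 to 35.684 Mb, and largest there at 35.680 Mb, at 1.34. As a technical yardstick, 2 libraries from full and diluted template, both from the Hba-a1 viewpoint in fetal liver, differed in log2 O/E with an SD of 0.45 over 325 positions. That pair is 1 viewpoint in another tissue and does not measure the spread of the Oct4 libraries. In the 2 kb window the difference at 35.682 Mb was 0.52, and with targets 10 kb to either side 0.72.

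Beyond 40 kb most positions held 1 of 2 recurring values. With NlaIII/Csp6I these were 0.0225 and 0.0117, equal to 1e-09, and 95.6% of the members beyond 40 kb had one of them. Above 0.0225 there was 1 member. With DpnII/Csp6I they were 0.0210 and 0.0125, held by 76.1% of the members beyond 40 kb, and 12 were above 0.0210. The lower-coordinate side, which reaches further out, held these values too. Beyond 10 kb they made up 84.6% of the members and 64.8% of that side's positions with NlaIII/Csp6I. With DpnII/Csp6I the same shares were 67.8% and 45.9%. In relative signal the values are 0.746 and 0.387 with NlaIII/Csp6I and 0.649 and 0.387 with DpnII/Csp6I. Positions at these values have no order among themselves.

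Further maxima of O/E were lower. NlaIII/Csp6I had maxima at 35.774 Mb (O/E 1.45), 35.764 Mb (1.34), 35.741 Mb (1.12) and 35.701 Mb (1.08). DpnII/Csp6I had them at 35.775 Mb (1.45), 35.756 Mb (1.39) and 35.716 Mb (1.36). The NlaIII/Csp6I maxima are each the first of a run of equal O/E. These runs reach 35.783 Mb from 35.774 Mb, 35.769 Mb from 35.764 Mb, 35.744 Mb from 35.741 Mb and 35.711 Mb from 35.701 Mb. The maxima at 35.774 and 35.775 Mb, 129.75 and 130.75 kb from the viewpoint, are 1 kb apart, but that spacing depends on which of the equal positions is named. At 35.774 and 35.775 Mb the middle signal equalled the library's commonest value, and the mean relative signal over the target was 0.746 and 0.649. With the decay of this side alone O/E was 1.19 and 1.24. With no decay, log2 of signal over the library mean was -0.38 and -0.56.

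**Figure D4:**
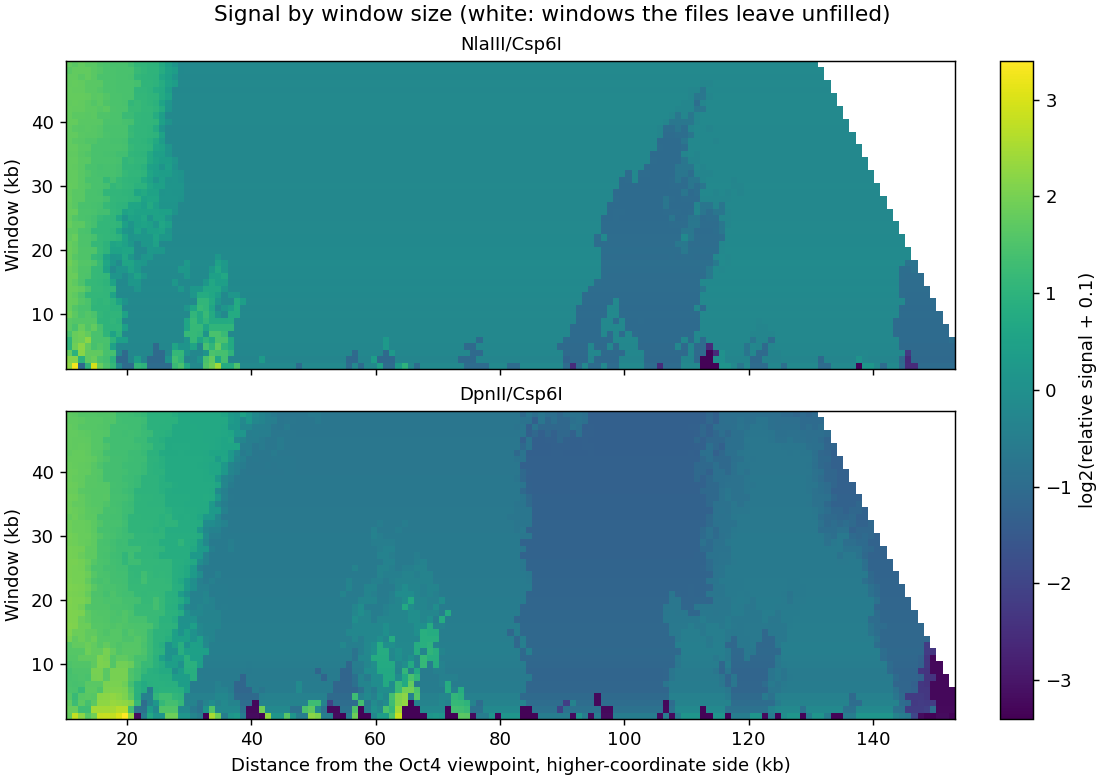
Relative signal (colour, log2 after adding 0.1) of the positions beyond 10 kb, by distance from the viewpoint (x, kb) and window size (y, 2 to 49 kb), 1 library per panel. Single colours over wide areas are the recurring values; the raised stretch near 61.75 kb with DpnII/Csp6I and the one below 37.75 kb with NlaIII/Csp6I fade as windows widen.

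This side was well filled at 5 kb. No member was empty in either library. At the same distances on the lower-coordinate side, 10 to 152.75 kb, 27.3% of positions were empty with NlaIII/Csp6I and 44.8% with DpnII/Csp6I. In the 2 kb window 2.80% of the members beyond 10 kb were empty with NlaIII/Csp6I and 17.5% with DpnII/Csp6I, against 43.4% and 79.02% at the same distances on the lower-coordinate side. Runs of at least 3 empty positions were 35.757 to 35.759 Mb with NlaIII/Csp6I, and 35.709 to 35.712 Mb and 35.728 to 35.730 Mb with DpnII/Csp6I. No such run was shared. Whether an empty window had no reads or no fragment to read cannot be told apart in these files.

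At the far end the libraries parted. The DpnII/Csp6I signal was 0.0210 at 35.787 Mb, 0.0125 at 35.789 Mb, 0.00368 at 35.790 Mb and 0.000175 at 35.794 to 35.797 Mb. NlaIII/Csp6I held 0.0117 from 35.789 to 35.797 Mb. The difference of log2 O/E reached 1.63 at 35.797 Mb, with O/E 0.837 and 0.270, and 4 positions from 35.794 Mb on were above 1. With the decay of this side alone the difference at 35.797 Mb was 0. At this end that decay follows the signal itself in both libraries, so the 0 was fixed in advance. Mean relative signal over the target was 0.387 with NlaIII/Csp6I and 0.0400 with DpnII/Csp6I. Here NlaIII/Csp6I lay at its second recurring value and DpnII/Csp6I under both of its own.

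Across this side the libraries were within 2-fold of each other in 22 of 29 bins of 5 kb (75.9%). On the lower-coordinate side to the same distance, without 5 bins that were empty in both libraries, 17 of 23 bins (73.9%) were within 2-fold. The SD of the log2 ratio of relative signal was 0.82 here and 1.02 there. The matching by distance was also added after the data were seen. Unmatched, the whole lower-coordinate side had 41 of 47 bins (87.2%) within 2-fold and an SD of 0.76. That set reaches further out and keeps the bins empty in both libraries. On the Tcf19 side NlaIII/Csp6I was more than 2-fold higher in 4 bins and DpnII/Csp6I in 3. The 12 bins up to 70 kb, a split chosen after the values were seen, had an SD of 0.95 and the 17 bins beyond it 0.66. Pearson's r of log2 relative signal was 0.66 and Spearman's rho 0.67 over the 29 bins, and 0.39 and 0.38 over the nearest 12. These describe bins that share a library and a decay with distance.

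**Figure D5:**
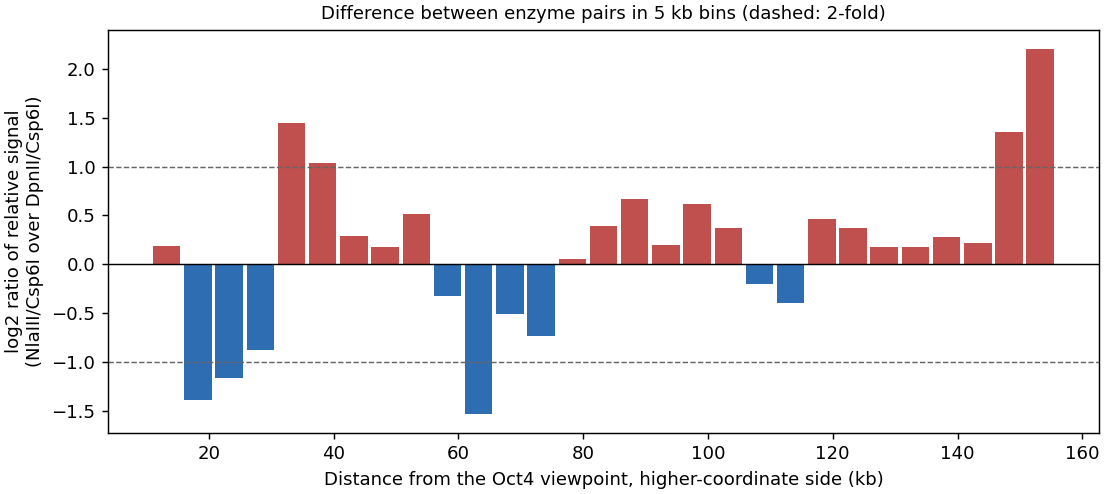
log2 ratio of relative signal, NlaIII/Csp6I over DpnII/Csp6I, in 29 bins of 5 kb against distance from the viewpoint, with dashed lines at 2-fold. DpnII/Csp6I is higher in the bins at 35.660, 35.665 and 35.705 Mb, and NlaIII/Csp6I at 35.675 and 35.680 Mb and in the last 2 bins.

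In log2 O/E, 11 members (7.69%) were above 1 for NlaIII/Csp6I minus DpnII/Csp6I, near the 6.65% of all positions. Another 8 members (5.59%) were below -1, against 2.13% of all positions, a share made up of these same 8. All 8 positions of the library pair with a difference below -1 lay on this side, in the stretches 35.664 to 35.668 Mb, 35.706 Mb and 35.712 to 35.713 Mb. With the decay of this side alone, a count added after the data were seen, 6 members were above 1, from 35.679 to 35.684 Mb. None was below -1, the lowest difference being -0.86. At the far end that decay follows the signal itself, so the 4 positions from 35.794 Mb on could not be above 1. Against the template pair's SD of 0.45, 23 members (16.1%) were higher with NlaIII/Csp6I and 30 (20.98%) with DpnII/Csp6I, against 16.2% and 16.8% of all positions. The stretches above 1 were at 33.75 to 39.75 kb and at 149.75 to 152.75 kb from the viewpoint, and those below -1 at 19.75 to 23.75 kb, 61.75 kb and 67.75 to 68.75 kb.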

How the data were processed

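Per the labels, 4C PCR products of ES cells were sequenced. Per the submitters' processing notes the build is mm9. The deposited files hold a signal in 1000 bp steps for 48 window sizes of 2 to 49 kb, named normalized medians in the file names; the authors' aligner, filters and normalization are not given in these sources. Depth is unknown, so no counting interval was computed. Window sizes were read from the unfilled ends of the columns, and the lower, middle and higher columns were in that order at 100% of positions.

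From the signal, the viewpoint, library mean beyond 10 kb, O/E (pseudocount 10%, targets 5 kb to either side) and 5 kb bins were computed with Python 3.11.15, numpy 2.4.6 and scipy 1.17.1, and the O/E code was tested on simulated data. The pseudocount and the monotone decay pull a planted contact toward 1. The simulated profiles were not smoothed and had no empty positions or recurring values, so the test does not cover those traits of the data. Named positions are, for each library, the 5 highest local maxima of O/E (fewer where fewer exist) with 10 kb or more between them, up to 3 largest differences per direction, runs of at least 3 empty positions, and distances in 10 kb steps. The members, lists and rules were chosen with earlier results of these data known. Alternatives were other windows, decays, pseudocounts, exclusions, widths and columns.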

Additional observations from a re-analysis of the deposited data

How the results depend on the processing

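With 1 library per enzyme pair, no replicate could be left out, and no paired analysis was possible because each group holds 1 library. A change counts as moved beyond 1.5 times for counts and the bin SD, 0.45 for log2 O/E and 9.18 points for the share of signal, from the template pair. The share of signal kept within that in 12 of 14 settings, moving to 47.3% (lower column, NlaIII/Csp6I) and 54.6% (2 kb, DpnII/Csp6I). The 9.18 points come from 1 pair that does not measure the spread of these shares. With DpnII/Csp6I a share of 46.8% (higher column) still counted as kept, so the count does not show that the shares are stable. Positions above 1.5-fold, 0 with NlaIII/Csp6I, became 11 at 2 kb, 11 with no decay, 12 with a pseudocount of 1% and 28 in the higher column. The 12 of DpnII/Csp6I became 39 at 2 kb, 5 at 10 kb, 0 at 20 kb, 26 with no decay and 27 in the lower and in the higher column. The bin SD became 0.51 at 20 kb and 1.34 in the lower column. At 35.706 Mb log2 O/E (1.16) became 0.55 at 10 kb, 0.17 at 20 kb, 0.60 with 10 kb to either side and, reversed, -0.0173 at the single position. Its difference from NlaIII/Csp6I (1.05) became 0.55, 0.26, 0.52 and, reversed, -0.59. At 35.682 Mb log2 O/E (0.55) became -0.17 at 20 kb, -0.0887 with a power-law decay and 0 at the single position, and the difference (1.32) became 0.52 at 2 kb and 0.72 with 10 kb to either side. Empty positions (0 and 0) became 4 and 26 at 2 kb, and 5 with DpnII/Csp6I under a limit of 1% of the mean. Of the further maxima, 12 of 70 values of log2 O/E and 5 of 70 differences moved. The single-position reversal of log2 O/E at 35.706 Mb follows from its own low value beside higher neighbours. That of the difference also takes in the NlaIII/Csp6I signal, which was 0.0335 at 35.706 Mb and 0.0225 at 35.705 and 35.707 Mb. The cause of the other changes was not tested.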
